A study of Mus musculus with 4 samples.

Results

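Interferon-induced GTPases are large cytosolic proteins that immune cells make in quantity after interferon-gamma and that act against microbes living inside the cell. The account concerns 8 of the 32285 genes counted: the guanylate-binding proteins Gbp2, Gbp3, Gbp4, Gbp5 and Gbp7, and the immunity-related GTPases Igtp, Irgm1 and Iigp1. They were selected on their names as a gene family, with earlier results of the same table in view, in which interferon-induced genes including Igtp were higher in knock-out than in wild-type macrophage-like and monocyte-like cells. The knock-out against wild-type values below are therefore a description of a contrast that had been seen before, and nothing is read from how many of the 8 passed a test. All 8 were measured.

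The cells were live CD45+ (immune) cells sorted from the digested esophagus of 5 Il20rb knock-out and 5 wild-type mice. IL20RB is a receptor subunit used by IL-19, IL-20 and IL-24. All animals of both genotypes were taken through an eosinophilic esophagitis model (allergic disease of the gullet wall): ears were treated with MC903 (calcipotriol) and ovalbumin (OVA), and ovalbumin was then given by mouth, so there was no untreated group. MC903 was given at 1 nmol, with 14 days of sensitisation, gavages on days 15 and 17, and collection on day 18. Each animal carried its own hashtag antibody, the 10 suspensions were pooled and run on 2 wells, and the animal was the replicate; the labels give no age, strain, sex or litter.

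Interferon-gamma is released mainly by T cells and natural killer (NK) cells, binds the receptor made of IFNGR1 and IFNGR2, and acts through the kinases JAK1 and JAK2. Its signal reaches target promoters mainly at the GAS element, whereas that of type I interferons reaches them mainly at the ISRE element; many GTPase genes respond to both. Guanylate-binding proteins gather on bacteria and on the vacuoles of parasites, and Gbp2 and Gbp5 of the mouse are known for promoting inflammasome activation. Of the immunity-related GTPases, Iigp1 is an effector loaded onto parasite vacuoles, while Irgm1 and Igtp are regulators that keep such effectors off the cell's own membranes.

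In RefSeq's GRCm38.p6 annotation 4 of the 5 guanylate-binding protein genes were close neighbours on chromosome 3: Gbp5 at chr3:142496934-142522344, Gbp7 at chr3:142530336-142550151, Gbp3 at chr3:142560016-142573213 and Gbp2 at chr3:142620663-142638008. Gbp4 lay apart at chr5:105115767-105139586, between Gbp9 and Gbp10. Irgm1 was at chr11:48865245-48871420 and Igtp at chr11:58199556-58207592 beside Irgm2. The genes are paralogues, and Gbp2 overlaps Mir6381 and Gbp3 overlaps Gm40158, so reads that fit more than 1 of them make the split between close copies uncertain.

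Promoters were in RefSeq's table for 6 of the 8 genes, and Gbp4 and Iigp1 were not among them. The last 170 bases before the start of each are shown because they carry the letters that interferon-activated factors are known to bind. For Gbp3 the start used was chr3:142560044, so the last bases printed lie inside the gene span given above. Capitals mark matches to TTCNNNGAA (the GAS letters, the same on both strands) and to GAAANNGAAA or its reverse complement TTTCNNTTTC (the ISRE-type letters); neighbouring matches may share bases, as in Gbp3 and Irgm1.
Gbp5, chr3:142496764-142496933, plus strand: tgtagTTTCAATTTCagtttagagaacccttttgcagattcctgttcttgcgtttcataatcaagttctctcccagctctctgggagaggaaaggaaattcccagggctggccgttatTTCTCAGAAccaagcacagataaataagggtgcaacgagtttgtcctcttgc
Gbp7, chr3:142530166-142530335, plus strand: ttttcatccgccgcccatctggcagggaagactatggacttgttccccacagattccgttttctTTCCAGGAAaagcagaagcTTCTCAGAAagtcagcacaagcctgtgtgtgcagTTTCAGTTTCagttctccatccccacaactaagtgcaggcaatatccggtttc
Gbp3, chr3:142559874-142560043, plus strand: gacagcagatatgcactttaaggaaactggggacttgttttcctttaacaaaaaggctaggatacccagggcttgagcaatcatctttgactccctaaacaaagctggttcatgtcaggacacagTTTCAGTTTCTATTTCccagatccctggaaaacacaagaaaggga
Gbp2, chr3:142620493-142620662, plus strand: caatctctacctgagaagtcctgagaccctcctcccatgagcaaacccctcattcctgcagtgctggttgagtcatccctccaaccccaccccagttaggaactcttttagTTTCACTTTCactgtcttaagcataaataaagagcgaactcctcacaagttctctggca
Igtp, chr11:58199386-58199555, plus strand: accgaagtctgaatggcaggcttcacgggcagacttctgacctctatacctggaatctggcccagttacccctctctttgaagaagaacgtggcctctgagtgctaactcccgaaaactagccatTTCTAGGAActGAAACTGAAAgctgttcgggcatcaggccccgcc
Irgm1, chr11:48871421-48871590, minus strand: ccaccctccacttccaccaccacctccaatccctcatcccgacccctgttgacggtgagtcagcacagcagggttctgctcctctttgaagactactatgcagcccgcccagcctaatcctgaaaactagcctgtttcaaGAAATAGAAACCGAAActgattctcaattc
Within the 250 bases before the start, 6 of the 6 genes had a promoter with the ISRE-type letters, among their 7 promoter entries, against 2.98% of all 32851 promoter entries. The GAS letters stood in 3 of the 6 genes (Gbp5, Gbp7 and Igtp), against 7.02% of all promoter entries. In Igtp the GAS match began 45 bases before the start and the ISRE-type match 34 bases before it. Gbp5 held a further GAS match 245 bases before the start, outside the window printed, and a second RefSeq start of Gbp3 held neither motif. A match is a run of letters, not a measured binding site.

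The table held 6054 cells, 2633 of knock-out and 3421 of wild-type animals, with 1805883 to 5666994 UMIs (counted RNA molecules) per animal. Levels are CPM, the gene's UMIs per 1000000 UMIs of that animal's cells of the class, and 3 UMIs in all cells of an animal correspond to 0.529 to 1.66 CPM. Median UMIs per cell were 5733 ± 379 in knock-out and 4776 ± 913 in wild-type animals (mean ± SD, n = 5 each). Il20rb was close to the floor in both genotypes, with 6 UMIs in knock-out and 10 UMIs in wild-type animals, so the data cannot check the genotype labels through it; Ptprc, which encodes CD45, had a UMI in 89.8% to 92.8% of the cells of knock-out and 81.8% to 90.6% of wild-type animals. The wells shared 2 cell barcodes. Cells were clustered without 84 interferon-related genes and the classes named from marker genes, so class names are rebuilt ("X-like") and 898 cells stayed unnamed.

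The 8 genes did not share 1 lineage pattern. Averaged over animals of both genotypes, Gbp2 and Gbp5 were highest in neutrophil-like cells and, among dendritic cells, in the migratory ones; Gbp4 was highest in lymphoid cells (cytotoxic/NK-like, T-like and ILC2-like, the group 2 innate lymphoid cells); Iigp1 was found in T-like, monocyte-like and macrophage-like cells and was almost missing from neutrophil-like cells. These levels over lineages are a description without a test.

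Gbp2 averaged 618 ± 750 CPM in neutrophil-like cells (SD over 7 animals), 229.8 ± 113 CPM in migratory DC-like cells (5 animals) and 117 ± 86 CPM in monocyte-like cells (8 animals), and its spread over animals was as large as these steps. The lead of neutrophil-like cells rested on 2 knock-out animals, whose mean was 1537 CPM for Gbp2 and 762 CPM for Gbp5. In wild-type animals alone, Gbp2 averaged 250.3 CPM in neutrophil-like (median 62.7, 5 animals) and 229.7 CPM in migratory DC-like cells (median 175, 4 animals), and Gbp5 72.5 CPM (median 0) and 73.1 CPM (median 72.6). In macrophage-like and cDC2-like cells it averaged 40.3 ± 23.6 and 33.4 ± 20.4 CPM (10 animals each), and in cDC1-like cells, the dendritic cells of cross-presentation, 7.56 ± 7.33 CPM (9 animals). Neutrophil-like cells made up 9.76% of all cells and 3.41% of all UMIs, and carried 31.8% of all Gbp2 UMIs and 26.0% of all Gbp5 UMIs. Monocyte-like cells carried 35.7% of the Gbp2 UMIs and 47.7% of the Gbp5 UMIs with 21.4% of all UMIs. These shares pool the animals, and wild-type animal 1 gave 637 of the 1011 Gbp2 UMIs of neutrophil-like cells. The neutrophil-like share of an animal's Gbp2 UMIs ran from 0% (knock-out animals 2 and 4, wild-type animal 3) to 67.0% (wild-type animal 1). The monocyte-like share ran from 0% (knock-out animal 3) to 55.3% (knock-out animal 5).

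Iigp1 gave 1 UMI in 591 neutrophil-like cells, against 408 UMIs in 1263 monocyte-like cells. In monocyte-like cells it averaged 39.1 ± 55.7 CPM (8 animals) and in macrophage-like cells 13.1 ± 22.4 CPM (10 animals). Knock-out animals 1 and 5 gave 84 and 274 of these 408 UMIs. Wild-type animal 1, with 317 of the neutrophil-like cells, had 2 Iigp1 UMIs in 242 monocyte-like cells. Neutrophil-like cells are shallow, with a median of 1766 UMIs per cell in knock-out and 1826 in wild-type animals. The more abundant Gbp2 and Irgm1 had 1011 and 492 UMIs in the same cells. Gbp4, with 589 UMIs in all beside 583 of Iigp1, had 12. Whether depth accounts for the scarcity of Iigp1 there was not tested. The T-like mean of 59.7 ± 150 CPM (9 animals) rested on wild-type animal 1, with 458 CPM, while the other 8 animals lay between 0 and 29.0 CPM.

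Gbp4 averaged 217 ± 16 CPM in cytotoxic/NK-like cells (2 animals with 11 cells each), 106 ± 87 CPM in T-like cells and 73.7 ± 43.1 CPM in ILC2-like cells (9 animals each), above its 22.2 ± 21.5 CPM in monocyte-like and 7.67 ± 7.44 CPM in macrophage-like cells. T-like cells held 2.48% of all UMIs and 13.2% of the Gbp4 UMIs, and ILC2-like cells 3.01% and 12.7%. Irgm1 was the member present most evenly: it averaged 40.4 ± 22.7 CPM even in cDC1-like cells, where the other 7 members averaged 0.472 to 7.56 CPM. Gbp7 and Igtp lay between these patterns, at 158 ± 98 and 104 ± 82 CPM in neutrophil-like, 141 ± 55 and 106 ± 56 CPM in monocyte-like, and 108 ± 69 and 103 ± 138 CPM in T-like cells.

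**Figure D1:**
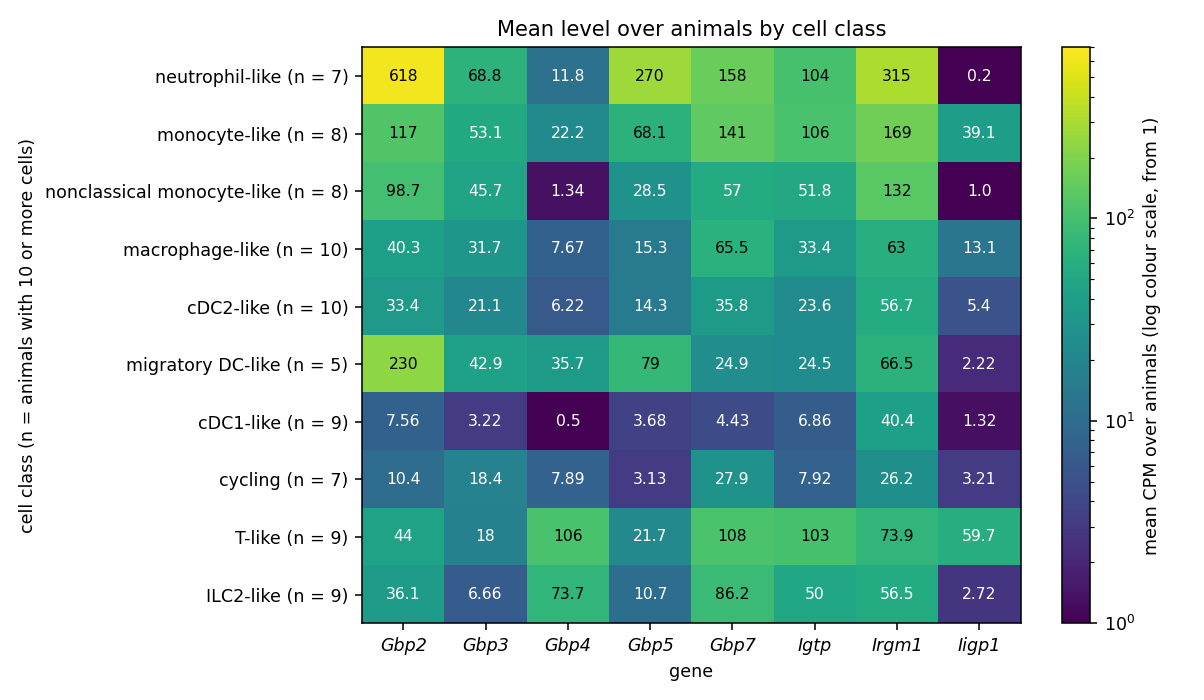
Mean level of each member (columns) in each cell class (rows), in CPM averaged over the animals with 10 or more cells of the class, on a logarithmic colour scale that starts at 1. Gbp2 reaches 618 CPM in neutrophil-like cells where Iigp1 is at 0.197 CPM, Gbp4 stands at 106 CPM in T-like cells, and cDC1-like cells hold little but Irgm1.

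To compare shares of cells across depths, each cell was thinned to 1000 UMIs, a depth that every cell reached. After thinning, at least 1 member had a UMI in 85.9% of neutrophil-like cells of the 2 knock-out animals with 10 or more such cells (83.8% and 88.0%) and in 31.1% ± 26.0 of those of 5 wild-type animals. In monocyte-like cells the share was 59.4% ± 7.4 in 3 knock-out and 35.2% ± 12.5 in 5 wild-type animals, and in macrophage-like cells 28.2% ± 9.0 in knock-out and 16.0% ± 4.4 in wild-type animals (n = 5 each). In cDC1-like cells it was 7.58% ± 6.42 in 5 knock-out and 7.05% ± 1.91 in 4 wild-type animals, the lowest of the named classes; no class here is known to lack these genes, so this share is the nearest to a background. Without thinning, the shares in monocyte-like cells were 94.3% in knock-out and 71.6% in wild-type animals, and those in cDC1-like cells 37.7% and 27.8%, at median depths of 5818 and 6091 UMIs in monocyte-like and 7885 and 7569 UMIs in cDC1-like cells of knock-out and wild-type animals.

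Over all CD45+ cells, the 8 genes varied widely between animals of a genotype, and the genotypes overlapped for each of them. Gbp2 had 104, 39.7, 23.8, 62.7 and 239.5 CPM in knock-out animals 1 to 5, against 208, 41.0, 35.2, 29.0 and 23.6 CPM in wild-type animals 1 to 5. Igtp had 90.7, 15.6, 11.6, 51.3 and 131 CPM in the knock-out animals, against 85.8, 30.4, 18.4, 22.8 and 20.8 CPM in the wild-type animals. In both, knock-out animals 1 and 5 and wild-type animal 1 were the highest, and the genotypes overlapped. Knock-out animals 2 and 3 were the lowest for Igtp, while for Gbp2 knock-out animal 2 lay above wild-type animals 3, 4 and 5. Irgm1 had 169, 30.1, 27.1, 78.3 and 200.1 CPM in the knock-out animals, against 167, 75.8, 30.3, 40.1 and 48.5 CPM in the wild-type animals. Iigp1 had 17.6, 2.41, 0.554, 13.04 and 91.7 CPM in the knock-out animals, against 10.9, 6.13, 5.48, 1.85 and 3.81 CPM in the wild-type animals, the widest span of the 8 as a ratio of highest to lowest. Gbp3, the steadiest, had 43.1, 36.5, 33.2, 34.9 and 62.6 CPM in the knock-out animals, against 43.3, 16.4, 26.8, 28.1 and 24.6 CPM in the wild-type animals. Knock-out animal 5 was the highest of the 10 animals for 8 of 8 members, and knock-out animals 5 and 1 and wild-type animal 1 were the top 3 for 7 of 8.

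**Figure D2:**
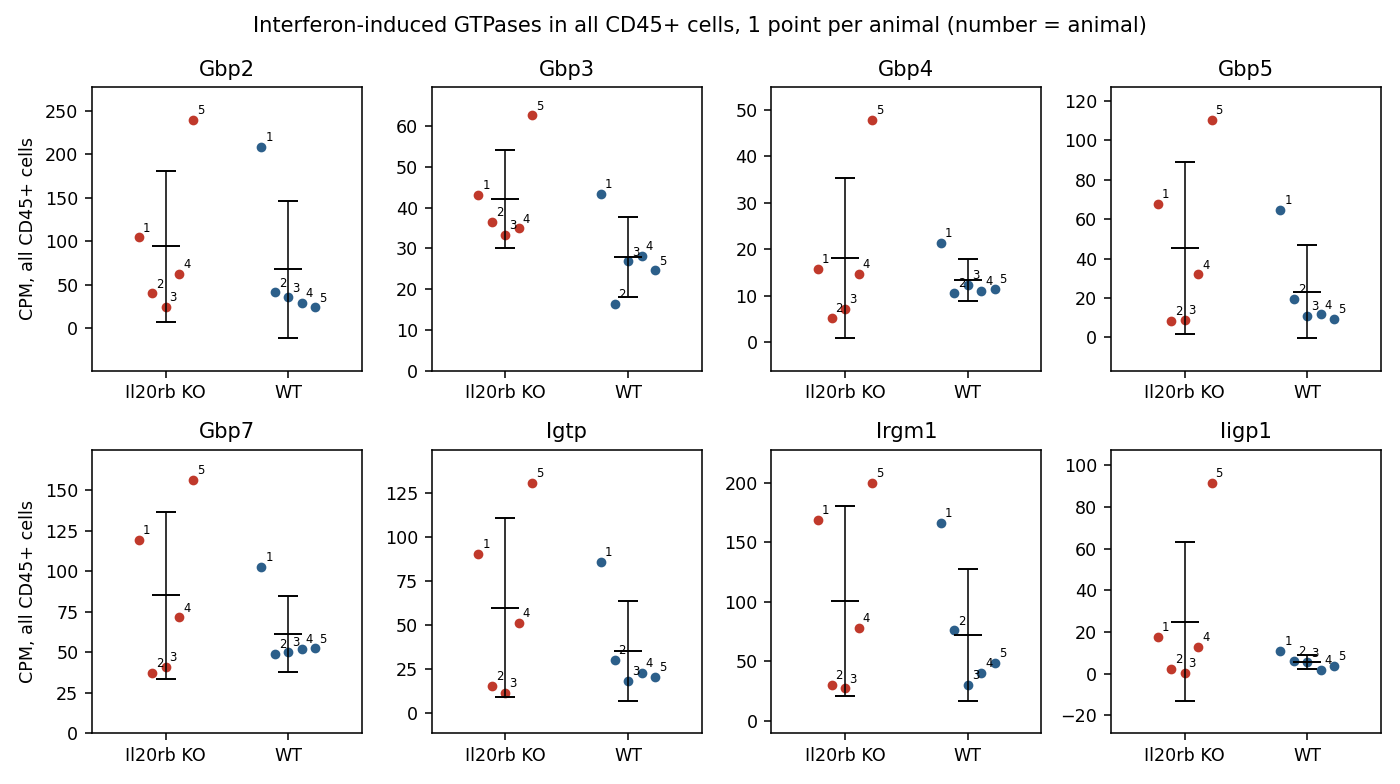
CPM of each member in all CD45+ cells, 1 point per animal with its number, Il20rb knock-out animals at the left and wild-type animals at the right; bars give the mean and SD (n = 5 each). Knock-out animal 5 lies on top in 8 of 8 panels, and in Gbp2 it stands at 239.5 CPM beside wild-type animal 1 at 208 CPM.

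In edgeR's quasi-likelihood test over all 10175 genes tested in all CD45+ cells, 0 of the 8 members passed a Benjamini-Hochberg adjusted p of 0.05; 4 genes did, 0.0393% of those tested, and the genotypes overlapped for 8 of 8 members. The log2 folds, knock-out over wild type, were positive for 8 of 8, with a median of 0.62 beside 0.01 over all genes tested, and ran between 0.52 ± 0.86 for Gbp2 and 2.30 ± 1.04 for Iigp1 (± SE, edgeR adjusted p between 0.746 and 0.958). At an unadjusted p under 0.05, edgeR counted 0 members and 697 genes in all; DESeq2 called 74 genes and 0 members. Without knock-out animal 5 the fold of Gbp2 was -0.27 and that of Gbp4 was -0.26, so both directions rested on that animal. In sums over all cells, more cells of a type and more RNA of the gene per cell cannot be told apart: monocyte-like cells made up 41.6%, 1.54%, 1.85%, 24.0% and 43.2% of the cells of knock-out animals 1 to 5, and 27.0%, 10.8%, 4.08%, 11.2% and 16.3% of those of wild-type animals 1 to 5.

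In monocyte-like cells the 8 members had log2 folds between 0.80 and 3.25, and 4 of them did not overlap between genotypes, but 0 of 8 passed the test over all genes. Of the genes tested, 0.231% (12 of 5189) passed, and 5.82% lay higher in knock-out than in wild-type animals without overlap. Only knock-out animals 1, 4 and 5 had 10 or more such cells, so 3 knock-out animals were compared with 5 wild-type animals, and knock-out animals 2 and 3, the lowest of all 10 in the sum of the members over all cells, were not among them. Gbp7 had 187, 173 and 239.6 CPM in knock-out animals 1, 4 and 5, against 109, 118, 118, 109.8 and 69.3 CPM in wild-type animals 1 to 5 (log2 fold 1.04 ± 0.20, edgeR adjusted p = 0.0545). Gbp3 had 63.4, 80.6 and 90.0 CPM in the knock-out animals, against 44.4, 29.6, 47.4, 44.5 and 25.0 CPM in the wild-type animals (1.11 ± 0.24, edgeR adjusted p = 0.0560). For both genes every knock-out animal lay above every wild-type animal, and the same held for Gbp4 and Igtp. Gbp5 had 107, 82.7 and 137 CPM in the knock-out animals, against 49.3, 83.3, 35.5, 26.7 and 23.1 CPM in the wild-type animals (1.40 ± 0.31, edgeR adjusted p = 0.0677), with wild-type animal 2 just above the lowest knock-out animal. Iigp1 had 35.5, 42.3 and 170.1 CPM in the knock-out animals, against 1.23, 43.0, 5.92, 8.90 and 5.78 CPM in the wild-type animals (3.25 ± 1.00, edgeR adjusted p = 0.169). The other 4 members (Gbp2, Gbp4, Igtp and Irgm1) had edgeR adjusted p between 0.145 and 0.249, and at an unadjusted p under 0.05 edgeR counted 8 of 8 members and 849 genes in all.

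The count of members past the threshold in monocyte-like cells moved with the method, and in most of these settings so did the count over all genes. DESeq2 called 5 members (Gbp2, Gbp3, Gbp5, Gbp7 and Igtp) among 155 of 5187 genes. Without a filter on low counts edgeR called 6 members among 415 of 14038 genes. On well 2 alone it called Gbp3, Gbp5 and Gbp7 among 43 of 3145 genes, and on well 1 alone 0 members and 4 of 3690 genes. Without wild-type animal 1, edgeR called Gbp3, Gbp5 and Gbp7 among 245 of 5087 genes, and without wild-type animal 2 Gbp5 among 12 of 5089.

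Different clusters held most of the monocyte-like cells of the 2 genotypes. The cluster led by Ccl12 and Cxcl10 held 236 knock-out and 31 wild-type cells, and its members summed to 1384 CPM. Ifit1bl1, which was open to the clustering, was among its leading genes, so the high members there are no separate finding. The cluster led by Ifi213 held 190 knock-out and 35 wild-type cells (1010.3 CPM), and the one led by Gm9733 and Vcan 120 knock-out and 42 wild-type cells (1141 CPM). Against these, the cluster led by Cxcl1 and Cxcl3 held 28 knock-out and 154 wild-type cells (291 CPM), and the one led by Ccl24 and Saa3 38 knock-out and 112 wild-type cells (535 CPM). Within monocyte-like cells the members were high in the clusters in which knock-out cells, pooled over animals, were in the majority. Interferon-induced genes open to the clustering were also among the leading genes of the Ifi213 cluster (Ifi213, Ifi206) and of the Gm9733 and Vcan cluster (Ifi209). The high members in those clusters are therefore no separate finding either. Knock-out animals 1 and 5 gave 365 and 293 of the 769 knock-out cells, and wild-type animal 1 gave 242 of the 494 wild-type cells. The split of each cluster by animal was not examined, so a majority of cells is no result over animals. How much of the difference lies within clusters was not tested.

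**Figure D3:**
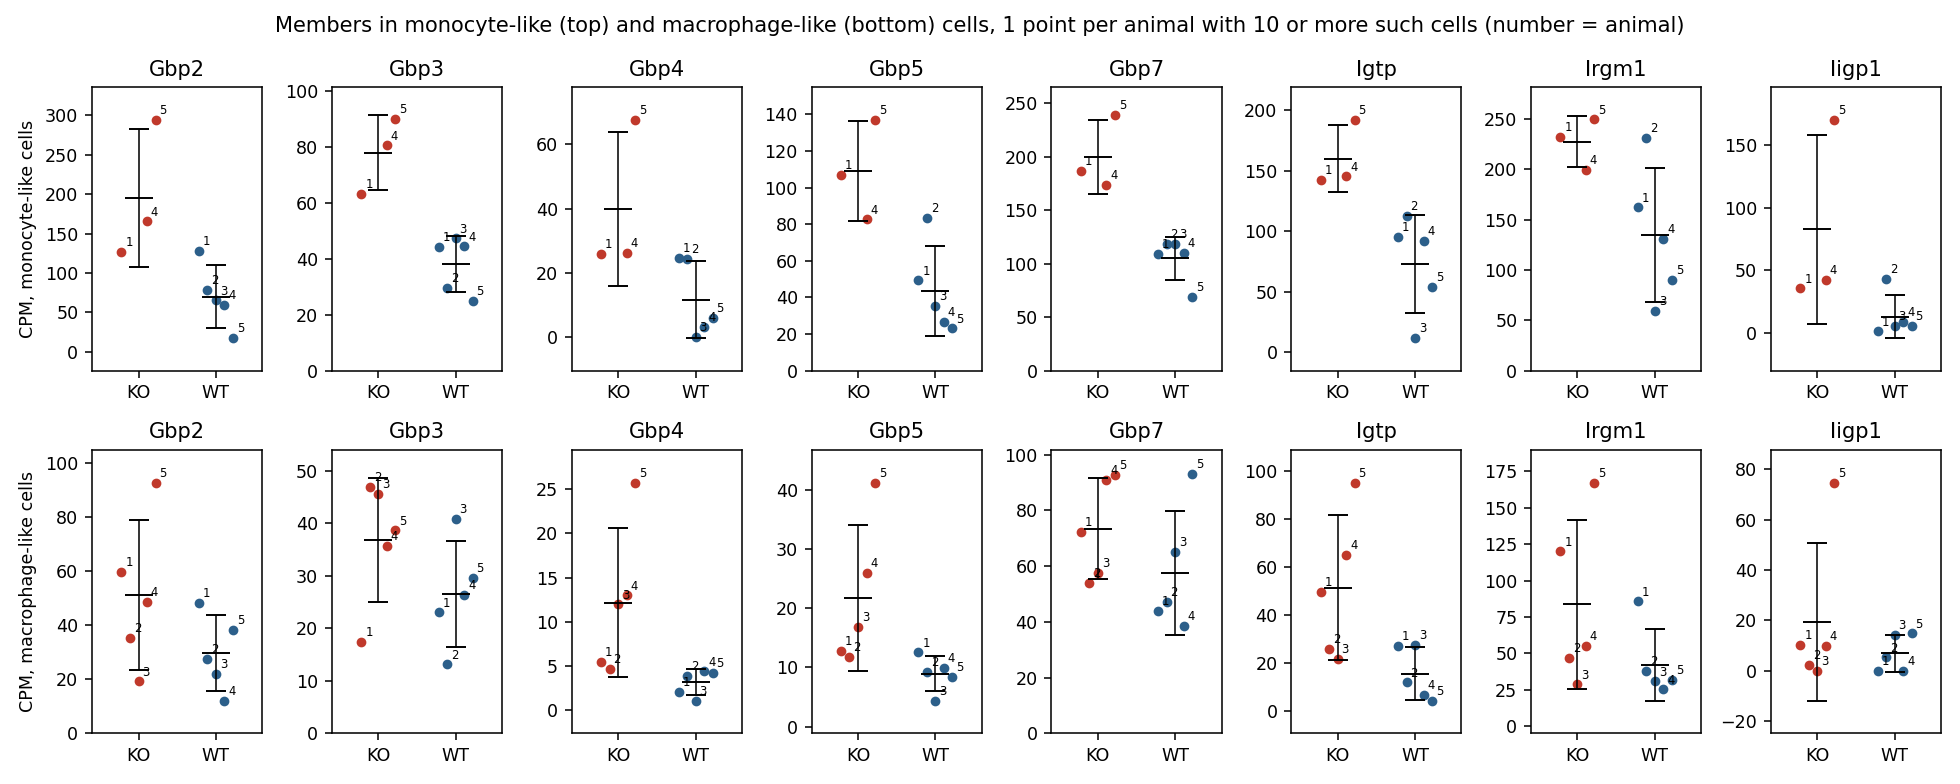
CPM of each member in monocyte-like cells (top; 3 knock-out and 5 wild-type animals) and macrophage-like cells (bottom; 5 and 5), 1 point per animal with its number, knock-out at the left, bars giving mean and SD. In monocyte-like cells the lowest knock-out animal for Gbp7 is at 173 CPM and the highest wild-type animal at 118 CPM; in macrophage-like cells the genotypes overlap for Igtp, with knock-out animal 5 at 95.3 CPM.

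In macrophage-like cells Igtp, a regulator, had the largest fold of the 5 members that passed the filter on low counts. It had 49.5, 25.8, 21.6, 65.0 and 95.3 CPM in knock-out animals 1 to 5, against 27.2, 11.8, 27.5, 6.60 and 4.23 CPM in wild-type animals 1 to 5 (log2 fold 1.71 ± 0.50, edgeR adjusted p = 0.804). Wild-type animals 1 and 3 lay above knock-out animals 2 and 3, so the genotypes overlapped. Gbp2 (0.91 ± 0.39), Irgm1 (1.09 ± 0.49), Gbp7 (0.39 ± 0.25) and Gbp3 (0.39 ± 0.33) had edgeR adjusted p of 0.991, and 0 of 5 passed, where 0.0188% (1 of 5308) of the genes tested did; 3 of 5 members and 242 genes in all had an unadjusted p under 0.05 in edgeR, and DESeq2 called 0 members. Gbp4, Gbp5 and Iigp1 did not pass the filter. Gbp4 had 5.50, 4.69, 12.0, 12.99 and 25.7 CPM in the knock-out animals, against 2.09, 3.94, 1.10, 4.40 and 4.23 CPM in the wild-type animals, on 27 and 11 UMIs in all. The lowest knock-out animal (4.69 CPM) and the highest wild-type animal (4.40 CPM) lay close together on few UMIs. The share of all genes without overlap was not computed in this class, so nothing is read from the order of the animals. A macrophage-like cluster led by Ccl8 and Ccl5 held 41 knock-out and 3 wild-type cells, and its members summed to 1053 CPM, against 132 to 379 CPM in the other macrophage-like clusters. These cells were pooled over animals, and their split by animal was not examined.

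In cDC2-like cells, dendritic cells that present antigen to CD4+ T cells, 5 members were tested and 0 passed, where 0.0351% (2 of 5705) of the genes did. Their log2 folds ran between 0.37 ± 0.56 for Irgm1 and 0.91 ± 0.42 for Gbp2, with an edgeR adjusted p of 0.9995 for each, 0 members and 264 genes at an unadjusted p under 0.05 in edgeR, and 0 members called by DESeq2. Irgm1 had 101, 28.2, 29.7, 35.6 and 115 CPM in knock-out animals 1 to 5, against 107, 49.1, 32.3, 39.2 and 29.4 CPM in wild-type animals 1 to 5. Knock-out animals 5 and 1 and wild-type animal 1 were the top 3 for Irgm1 and for 5 of the 8 members in all, but not for Gbp2, Gbp3 or Gbp4, in a class whose share of cells was 11.5% to 26.6% in knock-out and 6.02% to 16.4% in wild-type animals.

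In nonclassical monocyte-like cells (4 animals each, in a cluster that also carries genes of classical monocytes) Gbp2 had 84.7, 446, 108 and 77.5 CPM in knock-out animals 1, 2, 4 and 5, against 23.2, 27.6, 12.8 and 10.3 CPM in wild-type animals 1, 3, 4 and 5 (log2 fold 2.77 ± 0.74, edgeR adjusted p = 0.118). Every knock-out animal lay above every wild-type animal, and knock-out animal 2, at 446 CPM on 15 cells, was far above the other 3. How many of all genes lay without overlap in this class was not computed. Irgm1 (1.23 ± 0.53) and Igtp (0.94 ± 0.39) were the other members tested, with edgeR adjusted p of 0.420 and 0.349. None of the 3 passed in edgeR, although all 3 had an unadjusted p under 0.05; among the genes tested 1.06% (26 of 2459) passed, and unadjusted p was under 0.05 for 280. With DESeq2, 1 member (Gbp2) passed, among 32 of 2459 genes. Without knock-out animal 2 edgeR called Gbp2, among 24 of 2693 genes, and without wild-type animal 1 it called Irgm1, among 103 of 2613 genes.

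Neutrophil-like cells were not tested, since tests were run only where 3 or more animals of each genotype had 10 or more cells, and 2 knock-out animals did. Gbp2 had 1049 and 2024 CPM in knock-out animals 1 and 5, against 880.3, 253, 0, 55.2 and 62.7 CPM in wild-type animals 1 to 5. Gbp5 had 476 and 1049 CPM in the knock-out animals, against 243, 119, 0, 0 and 0 CPM in the wild-type animals. Both knock-out animals lay above all 5 wild-type animals for Gbp2 and Gbp5, but wild-type animals 3 and 4 gave 13 and 12 cells, so few that a gene at 0 is close to the limit of detection. For these cells, too, the share of all genes without overlap was not computed.

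In T-like, ILC2-like, cDC1-like and cycling cells the members had too few counts for the filter, apart from Gbp7 in ILC2-like cells, at a log2 fold of -0.30 ± 0.46 (edgeR adjusted p = 0.882). Few counts need not mean a low level: Gbp4 and Gbp7 averaged 106 and 108 CPM in T-like cells, on small sums. B-like, cytotoxic/NK-like and migratory DC-like cells were not fitted, with 0, 1 and 1 knock-out animals at 10 or more cells. Of the genes tested, 0.309% (5 of 1617) passed in ILC2-like, 0.288% (6 of 2083) in cDC1-like and 0.0253% (1 of 3953) in cycling cells. In T-like cells 0% (0 of 1114) passed in edgeR, with 77 at an unadjusted p under 0.05, and DESeq2 called 2. Gbp4 in T-like cells had 99.0, 42.3, 14.4 and 290.0 CPM in knock-out animals 1, 2, 3 and 5, against 190.0, 56.9, 88.0, 43.3 and 131 CPM in wild-type animals 1 to 5, on 11 to 58 cells an animal. Knock-out animal 5 and wild-type animal 1 were again the highest of their genotypes.

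**Figure D4:**
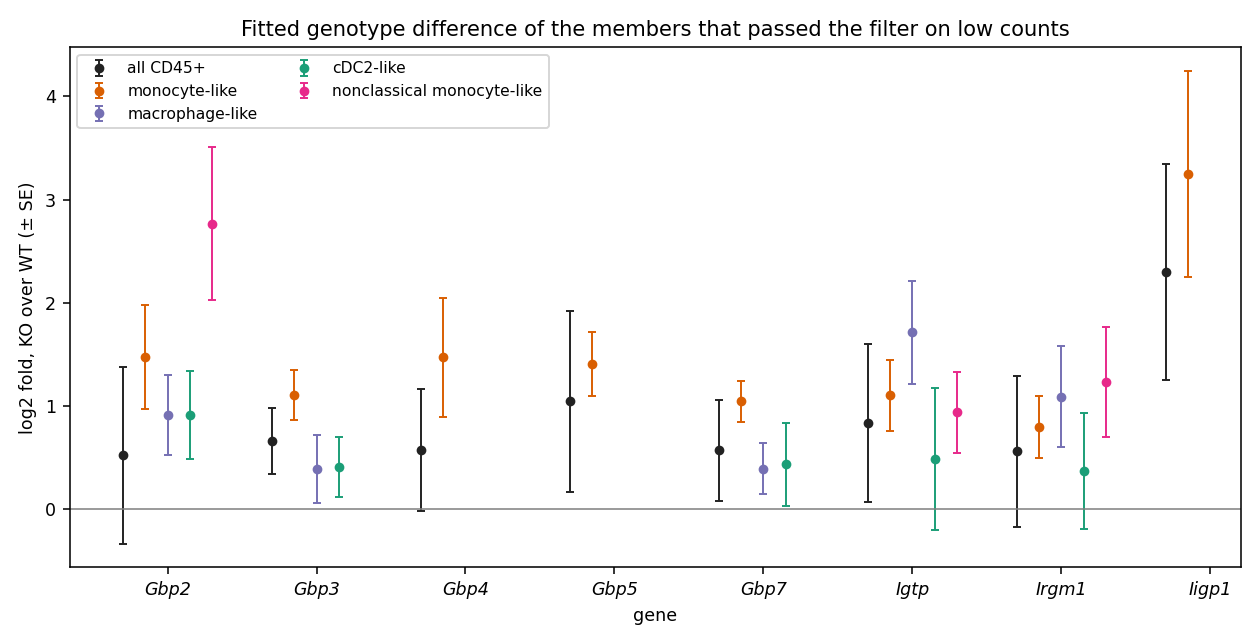
Log2 fold, knock-out over wild type, with its standard error, for each member that passed the filter on low counts in all CD45+ cells and in 4 myeloid classes. The folds lie above 0 in all 5 groups of cells, from 0.37 for Irgm1 in cDC2-like cells to 3.25 for Iigp1 in monocyte-like cells, and none passed the test over all genes.

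Whether the genotype difference itself differed between classes was tested as an interaction in edgeR with the animal as a term. Between monocyte-like and macrophage-like cells 0 of 8 members differed (edgeR adjusted p between 0.778 and 1.00, differences of log2 folds between -0.97 and 0.99). Between monocyte-like and ILC2-like cells 0 of 7 did, the lowest edgeR adjusted p being 0.188 for Gbp2 (difference 2.33 ± 0.71), and between macrophage-like and ILC2-like cells 0 of 5 did. Of all genes, 0 of 6364, 3 of 4262 and 0 of 5181 were called in these tests. At an unadjusted p under 0.05, edgeR counted 1, 3 and 3 members, and 345, 380 and 243 genes in all. Knock-out animals numbered 3, 3 and 4 in these tests, beside 5 wild-type animals in each. In ILC2-like cells fitted alone, only Gbp7 had passed the filter on low counts, and Gbp2 gave 6 UMIs in 4 knock-out animals. For the other members the tests against ILC2-like cells rested on counts too few for that filter there, and cannot decide. No member was thus shown to respond to the genotype in 1 class and not in another.

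Ifng, the inducer in the family's name, was scarce. It gave 99 UMIs in all, 74 of them in T-like cells, 24 in cytotoxic/NK-like cells and 1 in a cycling cell. It had 1.06, 1.604, 1.66, 0 and 3.63 CPM in knock-out animals 1 to 5, against 3.28, 1.39, 8.21, 2.16 and 1.39 CPM in wild-type animals 1 to 5. Knock-out animal 5 and wild-type animal 1, the highest in the members' sum (1040 and 704 CPM), came next after the animal with the highest Ifng. That level, in wild-type animal 3, stood beside summed members of 189.5 CPM, among the lowest, while knock-out animal 4, with 0 Ifng UMIs (up to 1.26 CPM could be missed at 3 UMIs), had 358 CPM. Ifng averaged 1.59 ± 1.32 CPM in knock-out and 3.29 ± 2.86 CPM in wild-type animals (SD, n = 5 each; two-sided exact permutation p = 0.302, adjusted p = 0.474 over 11 genes). The receptor subunit Ifngr1 averaged 180.3 ± 56.5 CPM in knock-out and 202 ± 31 CPM in wild-type animals (exact permutation p = 0.484), and Ifngr2 69.3 ± 10.8 and 70.5 ± 15.9 CPM (exact permutation p = 0.921). The kinase Jak1 averaged 120.3 ± 10.2 CPM in knock-out and 143 ± 9 CPM in wild-type animals, 5 of 5 knock-out animals lower, at the smallest p that this design allows (two-sided exact permutation p = 0.00794, adjusted p = 0.0873). In the edgeR fit over all cells its log2 fold was -0.19 ± 0.14 (edgeR adjusted p = 0.874). The share of all genes without overlap was not computed over all cells.

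The other inducers were scarce or did not pass. Ifnb1, a type I interferon, gave 79 UMIs, 56 of them in knock-out animal 1, and those 56 lay in its monocyte-like cells. Il18, which drives interferon-gamma release, averaged 78.3 ± 32.8 CPM in knock-out and 40.9 ± 23.8 CPM in wild-type animals (exact permutation p = 0.0794, adjusted p = 0.437). Il15 and Il27 had exact permutation p of 0.270 and 0.262, and Ifna2, Ifna4, Ifnl2 and Ifnl3 gave 0 UMIs.

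The sum of the listed type I interferon response genes had the same animals at its top and bottom as the sum of the members. Over all cells, the members summed to 627, 175, 153, 358 and 1040 CPM in knock-out animals 1 to 5, against 704, 249, 189.5, 197 and 194 CPM in wild-type animals 1 to 5. The 20 type I genes measured, among them Isg15 and Rsad2, summed to 8681, 707, 354, 3835 and 10591 CPM in the knock-out animals, against 9154, 2263, 539, 1427 and 1538 CPM in the wild-type animals. Knock-out animals 5 and 1 and wild-type animal 1 were the top 3 of both sums, and knock-out animal 3 the lowest. In macrophage-like cells alone the type I genes summed to 5404, 1202, 434, 3206 and 7511 CPM in the knock-out animals, against 4277, 1670, 576, 704 and 1514 CPM in the wild-type animals, so the spread between animals was also present within this lineage, which made up 12.2% to 26.2% of the cells of knock-out and 4.68% to 22.4% of those of wild-type animals.

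**Figure D5:**
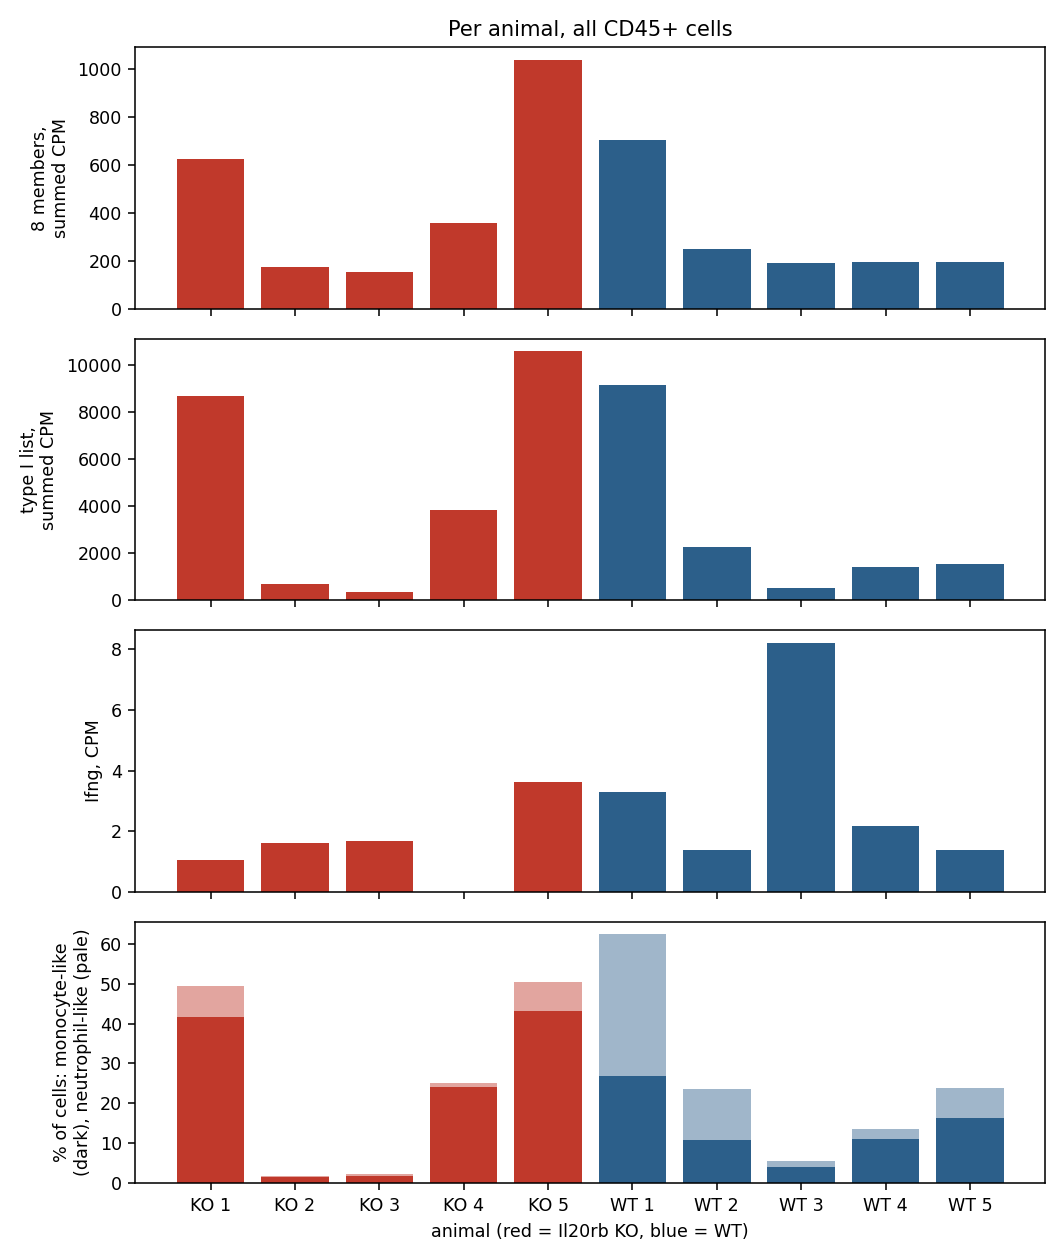
Per animal over all CD45+ cells, knock-out (red) left of wild type (blue): summed CPM of the 8 members, summed CPM of the listed type I interferon genes, CPM of Ifng, and the share of cells that were monocyte-like (dark) or neutrophil-like (pale). Knock-out animals 1 and 5 and wild-type animal 1 lead both sums, while Ifng is highest, at 8.21 CPM, in wild-type animal 3.

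In monocyte-like cells 3 lists of interferon-induced genes had positive folds throughout, and the list of the receptor and its signalling did not. Of the 7 receptor and signalling genes tested, 5 had positive and 2 negative folds (median log2 0.24), and 0 passed in edgeR, with 4 at an unadjusted p under 0.05. Ifngr1 averaged 86.0 ± 16.2 CPM in 3 knock-out and 163 ± 60 CPM in 5 wild-type animals (-0.72 ± 0.24, edgeR adjusted p = 0.149), Ifngr2 had a fold of 0.016 ± 0.195, Jak1 of -0.12 ± 0.17 and Jak2 of 0.24 ± 0.26. The signalling genes Irf1 (0.64 ± 0.20, edgeR adjusted p = 0.125) and Socs1 (0.94 ± 0.38, edgeR adjusted p = 0.261) had larger positive folds. Of 14 interferon-gamma targets tested that are not GTPases, 14 had positive folds (median log2 1.02, beside -0.02 over all genes tested) and 2 passed in edgeR: Cd74, the invariant chain of MHC class II, at 3581 ± 1437 CPM in 3 knock-out and 1407 ± 251 CPM in 5 wild-type animals (1.45 ± 0.23, edgeR adjusted p = 0.0473), and Aif1, an actin-binding protein of macrophages, at 726 ± 172 and 264 ± 85 CPM (1.51 ± 0.26, edgeR adjusted p = 0.0473). Of 20 type I genes, 20 had positive folds (median 1.07) and 0 passed in edgeR, with 16 at an unadjusted p under 0.05. The most abundant were Isg15, a ubiquitin-like modifier, at 3631 ± 816 CPM in knock-out and 1325 ± 806 CPM in wild-type animals, Rsad2 (1.16 ± 0.36, edgeR adjusted p = 0.161), Ifi204 (0.74 ± 0.28, edgeR adjusted p = 0.226) and the transcription factor gene Irf7, at 1067 ± 50 CPM in knock-out and 381 ± 175 CPM in wild-type animals (1.53 ± 0.36, edgeR adjusted p = 0.0967). Of 6 other interferon-induced GTPases tested, 6 had positive folds (median 0.94) and 0 passed in edgeR, with 4 at an unadjusted p under 0.05; the most abundant were Ifi47 (1.06 ± 0.41), Irgm2 (0.39 ± 0.28), Gbp9 (1.01 ± 0.31) and Gm5431 (0.87 ± 0.25). The lists were drawn up with earlier results known and share the animals, so their counts are no separate evidence.

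In nonclassical monocyte-like cells 5 listed genes passed in edgeR, all higher in knock-out animals: the type I genes Ifit2 (2.37 ± 0.36, edgeR adjusted p = 0.000527), Ifit3 (1.53 ± 0.37, edgeR adjusted p = 0.0438) and Oasl2 (1.02 ± 0.24, edgeR adjusted p = 0.0400), the peptide transporter Tap1 (1.47 ± 0.28, edgeR adjusted p = 0.00643) and the GTPase Ifi47 (1.38 ± 0.29, edgeR adjusted p = 0.0227). These calls depended on how cells were given to the class. With lineages set by marker level (5 animals each) 0 of 2025 genes passed in edgeR, so none of these genes did. With interferon-related genes kept in clustering 10 of 2489 genes passed, against 26 of 2459 in the reported fit. In macrophage-like cells 0 listed genes passed in edgeR; of 18 type I genes tested there, 18 had positive folds (median 1.07) and 2 an unadjusted p under 0.05.

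The genes whose levels ran most like the members over 95 sums of an animal and a class were nearly all interferon-induced. Likeness was the Pearson correlation of log2(CPM + 20) with the mean of the 8 standardised members among 5523 genes; the sums share animals, depth and lineage, so r is a description with no p. The RNA sensor gene Ddx58 came first (r = 0.88), and those after it included Ifit1 (0.82), Ifi47 (0.82), Ifit1bl1 (0.81), Dtx3l (0.80), Herc6 (0.80), the Z-nucleic acid sensor gene Zbp1 (0.79), Parp14 (0.78) and Usp25 (0.77). Among the members, Igtp ran most like the mean of the other 7 (r = 0.85) and Gbp4 least (r = 0.37), with Iigp1 at 0.42, Gbp3 at 0.56 and the other 4 between 0.74 and 0.79.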

How the data were processed

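UMI counts, not normalized, were deposited by the authors as 1 table of genes by cells, in which each cell's name carries its well, genotype and hashtag. The submitters' processing notes list Cell Ranger 6.0.1, R 4.0.5 and the mm10 build; the sources used here give neither counting settings nor strand. All cells held at least 1000 UMIs, so a filter had been applied earlier, and no further cell was removed. Scrublet called 3 cells (0.05%) doublets, too few for a working call, and an alternative left out the top 5% of scores. Symbols were matched for 32158 identifiers.

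Cells were clustered in scanpy 1.11.5 (2000 variable genes without the 84 interferon-related ones, 30 components, 15 neighbours, Leiden resolution 3), and a class needed 3 markers raised by 1 on the log2 scale. UMIs were summed per animal and class (10 or more cells an animal, 3 or more animals a genotype) and tested with edgeR 4.0.16 in R 4.3.3 (filterByExpr, TMM, robust quasi-likelihood, Benjamini-Hochberg over all genes tested), with DESeq2 1.42.0 as an alternative; the code was also run on simulated data. Ligand and receptor genes were compared by exact permutation of the 10 animals, two-sided.

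The members and lists were chosen with earlier results of these data known. From each list the text names the genes that passed, otherwise the 4 most abundant tested, and of the receptor and signalling list also Irf1 and Socs1. It also names the genes most like the members. A gene among these is not reported here. Of 18 other GTPases listed, 14 were measured under these symbols and the rest were not analysed here. A planned correlation of the members' sum with Ifng was left out because of how the members were chosen; the values stand side by side. Other alternatives were RLE scaling, no filter on low counts, 20 cells an animal, each well, each animal left out, interferon-related genes kept in clustering, lineages set by marker level and, chosen after seeing the data, all cells without monocyte-like and neutrophil-like cells.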

Additional observations from a re-analysis of the deposited data

Results flagged for a closer look

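Within a genotype, 21 of 80 groups of 4 or 5 animals had a value whose gap to its neighbour was large for the group's range (Dixon's criterion at 95%, which chance alone meets in about 1 of 20 groups); the groups share animals and genes, so they are not separate events. In all CD45+ cells wild-type animal 1 stood above the other wild-type animals for Gbp2 (208 CPM), Gbp4 (21.4 CPM), Gbp5 (64.8 CPM), Gbp7 (103 CPM) and Igtp (85.8 CPM), and knock-out animal 5 above the other knock-out animals for Gbp4 (47.8 CPM) and Iigp1 (91.7 CPM). The same animals stood apart within lineages: knock-out animal 5 for Gbp2 (82.4 CPM) and Iigp1 (42.1 CPM) in cDC2-like and Iigp1 (74.7 CPM) in macrophage-like cells, and wild-type animal 1 for Igtp (51.2 CPM), Irgm1 (107 CPM) and Iigp1 (5.12 CPM) in cDC2-like, Irgm1 (85.7 CPM) in macrophage-like and Gbp2 (880.3 CPM) in neutrophil-like cells. Iigp1 at 1.38 CPM in neutrophil-like cells of wild-type animal 1, and at 4.08 and 3.86 CPM in nonclassical monocyte-like cells of knock-out animal 5 and wild-type animal 1, stood against 0 in the other animals and rest on 1 UMI each. The other values were Gbp2 in nonclassical monocyte-like cells of knock-out animal 2 (446 CPM), Iigp1 in monocyte-like cells of wild-type animal 2 (43.0 CPM) and, as the lowest, Gbp7 in monocyte-like cells of wild-type animal 5 (69.3 CPM).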

How the results depend on the processing

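The count of members called was 0 in the reported fits and stayed 0 under the alternatives run in all CD45+ cells, macrophage-like, cDC2-like, cDC1-like, ILC2-like, T-like and cycling cells and in the 3 differences between classes. In monocyte-like cells it was 5 with DESeq2, 6 without a filter on low counts, 3 on well 2 alone, 3 with interferon-related genes kept in clustering, 1 with lineages set by marker level, 1 without the top doublet scores, and 0 to 3 with each animal left out. In nonclassical monocyte-like cells it was 1 with DESeq2, 2 without a filter on low counts, and 0 to 1 with each animal left out. Genes called over all in monocyte-like cells were 12 in the reported fit, 3 to 245 with each animal left out (245 without wild-type animal 1) and 4 to 415 otherwise (415 without a filter on low counts). In nonclassical monocyte-like cells they were 26 in the reported fit and 5 to 103 with each animal left out. Under the other alternatives they were 0 to 62 (0 with lineages set by marker level).
Of 499 alternative values of the members' log2 folds, 468 kept direction and side of the threshold, 28 passed it and 3 turned direction. Over all cells, the ranges with each animal left out were -0.27 to 1.76 for Gbp2 and -0.26 to 0.91 for Gbp4, the lowest without knock-out animal 5; Gbp4 was at -0.11 without monocyte-like and neutrophil-like cells. Of 185 alternative values of the differences between classes, none of which had passed, 22 turned direction: with each animal left out, monocyte minus macrophage ran from -0.40 to 0.46 for Gbp5, -0.059 to 0.61 for Gbp2, -0.52 to 0.52 for Gbp4 and -0.15 to 1.78 for Iigp1, and monocyte minus ILC2 from -0.49 to 5.40 for Gbp5, -0.76 to 4.72 for Gbp3 and -0.54 to 0.49 for Igtp (-0.013 with RLE scaling). The cause was not tested. No paired analysis was possible because the numbers in the labels mark wells that hold the same 10 pooled animals, and the animals carry no number that pairs genotypes. Low cell numbers limit what could be measured: monocyte-like cells of knock-out animals 2 and 3, and neutrophil-like cells of knock-out animals 2, 3 and 4, gave no level.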
